A study of Homo sapiens with 6 samples.

Results

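The genes described here are 10 published targets of the miR-34 family whose products sit at the cell surface: the receptor tyrosine kinases MET, AXL, PDGFRA and PDGFRB, the Notch receptors NOTCH1 and NOTCH2, the Notch ligands JAG1 and DLL1, and the adhesion molecules CD44 and L1CAM. They were taken from the literature, with earlier results of these data known. They were found by their symbols among the probe sets that the array's annotation pairs with exactly 1 gene. All 10 were found, each with 1 such probe set, among 18376 genes on 19309 probe sets. A further 2 probe sets, which the annotation shares between a member and other genes, were not used. Messenger RNA was measured on 6 whole-transcript Affymetrix arrays of PC3, an established line of aggressive, androgen-independent prostate cancer cells. In 3 samples miR-34c was expressed ectopically and in the 3 control samples a scramble mimic, and every sample was otherwise labelled alike. The groups follow the sample titles, which name miR-34c as the series title does, although miR-205 stands in the series' design text. Nothing in the labels tells whether the 3 samples per group were separate cultures. The p-values therefore cover just the spread among these arrays, which may be technical, and the number of arrays limits the precision.

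MicroRNAs of the miR-34 family are induced by p53 and pair through a short seed at their 5′ end with sites that lie mostly in the 3′ untranslated regions of messenger RNAs, which lowers the stability or translation of those messages. The receptor tyrosine kinases of this group bind growth factors outside the cell and start kinase cascades inside it, and MET and AXL are known for roles in the invasion of carcinoma cells. In the Notch pathway a ligand on one cell binds a receptor on its neighbour, the receptor is cut by ADAM proteases and by gamma-secretase, and the freed intracellular part acts as a transcriptional coactivator. CD44 binds hyaluronan, and L1CAM is an adhesion molecule of the immunoglobulin superfamily.

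The mature sequences are shown to set the 5′ ends of the family's arms beside that of the microRNA named in the design text. They are written 5′ to 3′ with the seed, bases 2 to 8, in capitals, and were taken from RefSeq on GRCh38.p14.
miR-34a-5p: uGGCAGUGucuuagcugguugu
miR-34b-5p: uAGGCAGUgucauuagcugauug
miR-34c-3p: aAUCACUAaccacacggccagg
miR-205-5p: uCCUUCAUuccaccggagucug
The first lies on the minus strand at chr1:9151735-9151756, the second on the plus strand at chr11:111512950-111512972, the third on the plus strand at chr11:111513484-111513505 and the last on the plus strand at chr1:209432166-209432187. The run GGCAGUG fills bases 2 to 8 of miR-34a-5p and bases 3 to 9 of miR-34b-5p, so both arms hold the same 7 bases, shifted by 1 position. Neither miR-34c-3p nor miR-205-5p holds that run. The guide arm miR-34c-5p belongs to the same family. Its sequence was missing from the source used here, so it is not shown and the run was not looked for in it. Target sites in the 10 messages were not examined here.

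The deposited values are log2 values that lie around 0, because a reference value was removed from each probe set. They show how a gene differs between arrays but not how bright it is, so the levels of different genes cannot be set against each other, and it cannot be seen which genes the cells express. Array medians ran from -0.0303 to 0.0615, and the correlation over all probe sets was 0.773 to 0.875 between arrays of a group and 0.557 to 0.699 between groups. A list of 12 interferon-stimulated genes, chosen with earlier results of these data known, was higher with miR-34c in 12 of 12 members (median log2 change 3.41, limma). Of all probe sets 7.56% were called higher and 7.92% lower in limma, at an adjusted p under 0.05. Of the epithelial markers 3 of 5 genes rose (EPCAM, CDH1 and KRT8, with log2 changes of 1.00, 0.40 and 0.30 on their leading probe sets, and 0.23 on the other of EPCAM, which did not pass), although the calls of CDH1 and KRT8 were lost when replicate 1 of the miR-34c group (adjusted p = 0.0727 and 0.0507) or 3 (0.126 and 0.146) was left out, among other arrays. None of 6 fibroblast, 5 leukocyte or 3 measured prostate luminal markers passed in limma, and 0 of these 14 had an unadjusted p under 0.05. Of 5 endothelial markers PECAM1 fell (log2 change -1.17, and -0.30 on its other probe set, which did not pass). The part of these differences in the results below was not tested. Of the loci of the family, MIR34A and MIR34B did not pass, at log2 changes of -0.21 and -0.13 (adjusted p = 0.114 and 0.618). These loci are read as transcripts of the cell, so they are no check on the delivery of miR-34c.

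Of the 10 genes 5 fell with miR-34c, none rose and 5 did not pass, with limma p-values adjusted by Benjamini-Hochberg over all 19309 probe sets and a threshold of 0.05. In the same fit 7.92% of all probe sets were called lower and 7.56% higher. AXL, NOTCH2, JAG1, MET and PDGFRA fell, to between 58.6% and 71.6% of the scramble level. The median log2 change of the 10 genes was -0.34, against -0.03 for all probe sets tested, and 8 of the 10 had a log2 change below 0, against 57.8% of all probe sets. All 3 miR-34c arrays lay below all 3 scramble arrays for 8 of the 10, against 19.0% of all probe sets. At an unadjusted p under 0.05 in limma 8 of the 10 were lower and 0 higher, against 16.1% and 12.9% of all probe sets. The genes were chosen with earlier results of these data known, so these counts describe them and are no independent test of the set.

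**Figure D1:**
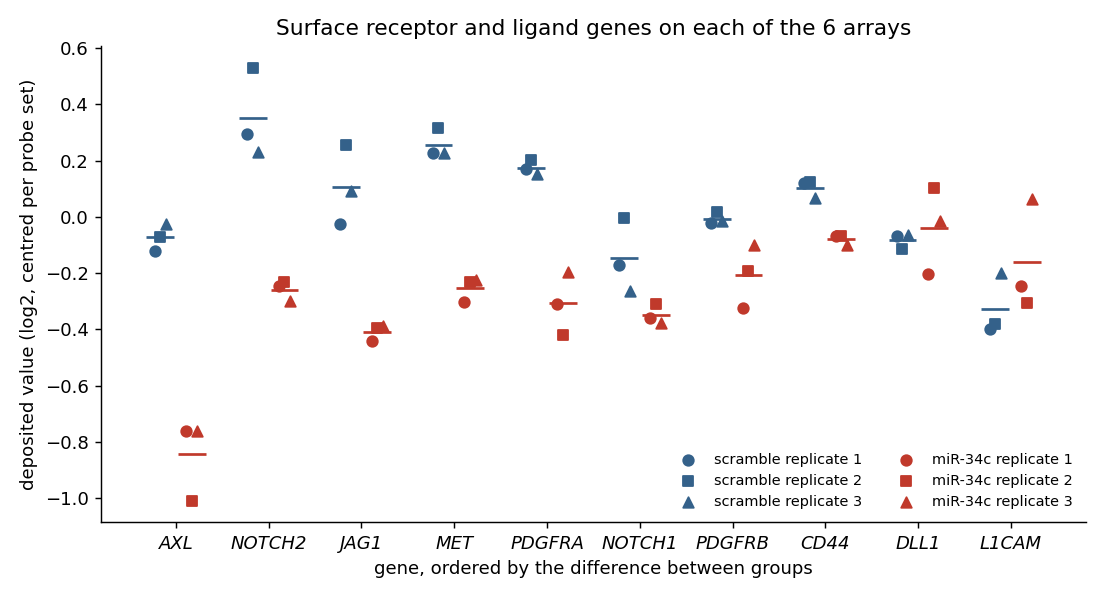
Deposited log2 value, centred per probe set, of each of the 10 genes on the 3 scramble arrays (blue) and the 3 miR-34c arrays (red). Marker shapes stand for the replicate numbers, and horizontal lines are group means. The red and blue points are apart for the 8 genes on the left and overlap for DLL1 and L1CAM. Heights of different genes cannot be compared.

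Among the receptor tyrosine kinases 3 of 4 fell. AXL, the receptor of the vitamin K-dependent ligand GAS6, stood at -0.76, -1.01 and -0.76 on miR-34c replicates 1 to 3 and at -0.12, -0.07 and -0.02 on scramble replicates 1 to 3. Every miR-34c array was far below the scramble arrays, with a gap of 0.64 between the groups, and miR-34c replicate 2 was the lowest. The log2 change was -0.77 ± 0.09 (SE, n = 3 per group), or 58.6% of the scramble level with a 95% confidence interval of 50.9% to 67.5% (limma adjusted p = 0.000739). Of all probe sets tested 0.487% had a log2 change as low as that of AXL.

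MET, the receptor of hepatocyte growth factor, stood at -0.30, -0.23 and -0.23 with miR-34c and at 0.23, 0.32 and 0.23 with the scramble mimic. The arrays of each group lay close together, within 0.08 and 0.09, and the groups were 0.45 apart. MET fell by 0.51 ± 0.07 (SE) on the log2 scale, to 70.3% of the scramble level (interval 62.6% to 78.9%, limma adjusted p = 0.00228).

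PDGFRA encodes the alpha receptor of platelet-derived growth factors. Its values were -0.31, -0.42 and -0.20 with miR-34c and 0.17, 0.20 and 0.15 with the scramble mimic. The scramble arrays were nearly level, and the miR-34c arrays were spread over 0.22 without reaching them. The log2 change was -0.48 ± 0.08 (SE), or 71.6% of the scramble level (interval 62.9% to 81.4%, limma adjusted p = 0.00495).

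PDGFRB encodes the beta receptor of platelet-derived growth factors. It stood at -0.33, -0.19 and -0.10 with miR-34c and at -0.02, 0.02 and -0.02 with the scramble mimic. The groups did not overlap, but the gap was 0.08, and the spread of the miR-34c arrays was 0.22. The log2 change of -0.20 ± 0.08 (SE) did not pass (limma adjusted p = 0.145), and its interval ran from 76.6% to 99.1% of the scramble level.

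Of the 4 Notch receptors and ligands 2 fell, 1 receptor and 1 ligand. NOTCH2 stood at -0.25, -0.23 and -0.30 on the miR-34c arrays and at 0.30, 0.53 and 0.23 on the scramble arrays. The miR-34c arrays were within 0.07 of each other, while scramble replicate 2 was well above the other scramble arrays. The log2 change of NOTCH2 was -0.61 ± 0.09 (SE), a fall to 65.4% of the scramble mean (interval 56.6% to 75.7%, limma adjusted p = 0.00278). The genome holds partial copies of NOTCH2 that are nearly identical to it, and its signal cannot be told apart from theirs with certainty. NOTCH1 stood at -0.36, -0.31 and -0.38 with miR-34c and at -0.17, -0.01 and -0.26 with the scramble mimic. The groups were apart by 0.05 only, and scramble replicate 3 lay nearest to the miR-34c arrays. The log2 change of NOTCH1 was -0.20 ± 0.09 (SE) and did not pass (limma adjusted p = 0.161), with an interval of 76.0% to 99.6% of the scramble level.

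JAG1, a ligand of the Jagged class, stood at -0.44, -0.39 and -0.39 with miR-34c and at -0.03, 0.26 and 0.09 with the scramble mimic. As for NOTCH2, the miR-34c arrays were close together and scramble replicate 2 was the highest. JAG1 fell by 0.52 ± 0.09 (SE) on the log2 scale, to 70.0% of the scramble level (interval 60.9% to 80.4%, limma adjusted p = 0.00517). DLL1, a ligand of the Delta class, stood at -0.20, 0.10 and -0.02 with miR-34c and at -0.07, -0.11 and -0.07 with the scramble mimic. The scramble arrays lay inside the range of the miR-34c arrays. Its log2 change was 0.04 ± 0.09 (SE, limma adjusted p = 0.805), its interval ran from 89.4% to 119% of the scramble level, and the sign turned without miR-34c replicate 2 (-0.0257).

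Neither adhesion molecule passed. CD44, the hyaluronan receptor, stood at -0.07, -0.07 and -0.10 with miR-34c and at 0.12, 0.12 and 0.07 with the scramble mimic. The groups were 0.13 apart and each was narrow. The log2 change of -0.18 ± 0.07 (SE) corresponds to 88.1% of the scramble level (interval 78.8% to 98.5%) and did not pass over all probe sets (limma adjusted p = 0.122). CD44 is spliced into many forms, which its single value does not separate. L1CAM stood at -0.25, -0.31 and 0.06 with miR-34c and at -0.40, -0.38 and -0.20 with the scramble mimic. The third array of each group was the highest of its group, and the groups overlapped. The log2 change of L1CAM was 0.16 ± 0.11 (SE), at 112% of the scramble level with an interval of 94.2% to 133% (limma adjusted p = 0.377). CD44, PDGFRB and NOTCH1 had intervals that stay below 100% of the scramble level but did not pass the adjustment over all probe sets.

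**Figure D2:**
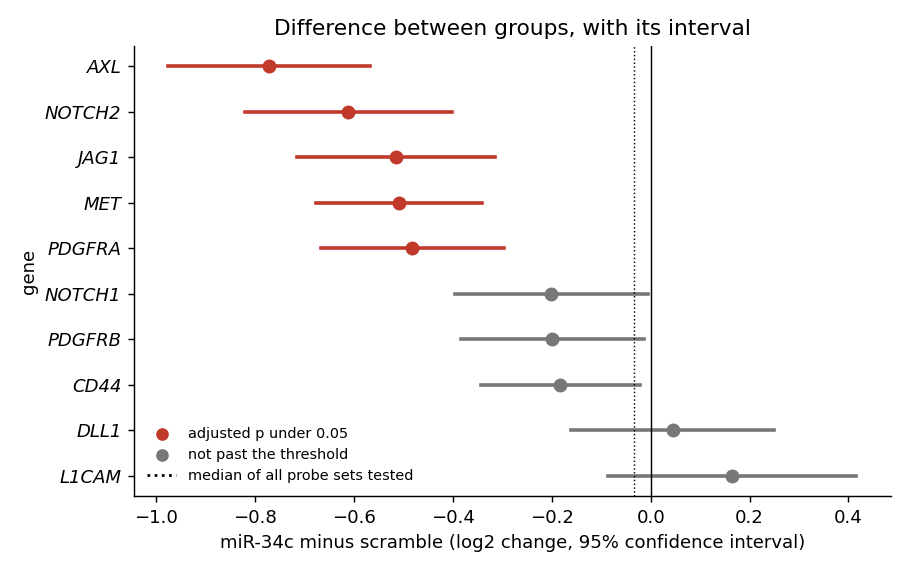
Log2 change (miR-34c minus scramble) of each gene with its 95% confidence interval from limma, n = 3 arrays per group. Red marks the 5 genes with an adjusted p under 0.05, which lie between -0.77 and -0.48, and the dotted line is the median of all probe sets tested (-0.03).

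By size the 10 genes fell into 3 stretches. AXL, NOTCH2, JAG1, MET and PDGFRA lay between -0.77 and -0.48, NOTCH1, PDGFRB and CD44 between -0.20 and -0.18, and DLL1 and L1CAM above 0. Neighbours within each stretch had overlapping intervals, and the interval of PDGFRA (-0.67 to -0.30) also overlapped that of NOTCH1 (-0.40 to -0.01). Among all probe sets, 3.11% had a log2 change as low as that of PDGFRA and 19.0% one as low as that of NOTCH1.

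**Figure D3:**
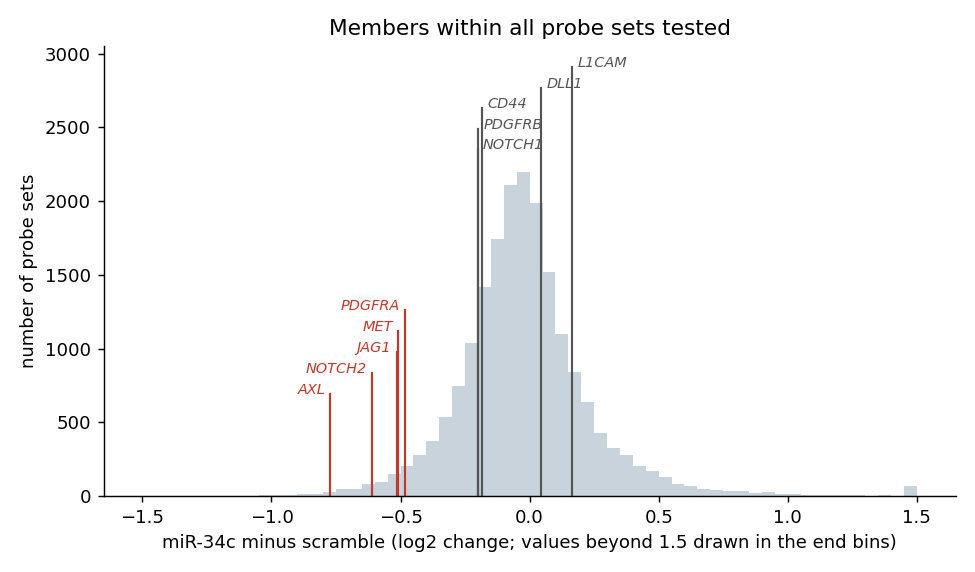
Histogram of the log2 changes of all 19309 probe sets tested (grey, in bins of equal width), with the 10 genes as vertical lines whose height has no meaning. The 5 genes with an adjusted p under 0.05 (red) lie in the lower tail, and the other 5 (dark grey) lie in the body of the distribution.

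Genes of one class were set against each other within each array, which asks whether they changed by unequal amounts. NOTCH2 minus NOTCH1 was 0.11, 0.08 and 0.08 on the miR-34c arrays and 0.47, 0.54 and 0.50 on the scramble arrays. The difference between them was thus lower by 0.41 on the log2 scale with miR-34c, and each group was tight (SD 0.02 and 0.03). PDGFRA minus PDGFRB was 0.02, -0.23 and -0.09 with miR-34c and 0.19, 0.19 and 0.17 with the scramble mimic, a difference of -0.28. JAG1 minus DLL1 was -0.24, -0.49 and -0.37 with miR-34c and 0.04, 0.37 and 0.16 with the scramble mimic, a difference of -0.56. MET minus AXL was 0.46, 0.78 and 0.54 with miR-34c and 0.35, 0.39 and 0.25 with the scramble mimic, a difference of 0.26. In each of the 4 pairs the groups did not overlap. NOTCH2, PDGFRA and JAG1, which fell, were set against genes that did not pass, so the separation there follows in part from those calls. How often the groups separate for other pairs of genes was not examined. The exact two-sided permutation test over the 20 assignments of the arrays gave p = 0.1 for each, the smallest value that 3 arrays against 3 can give, and 0.1 after adjustment over the 4 pairs, so none could pass.

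**Figure D4:**
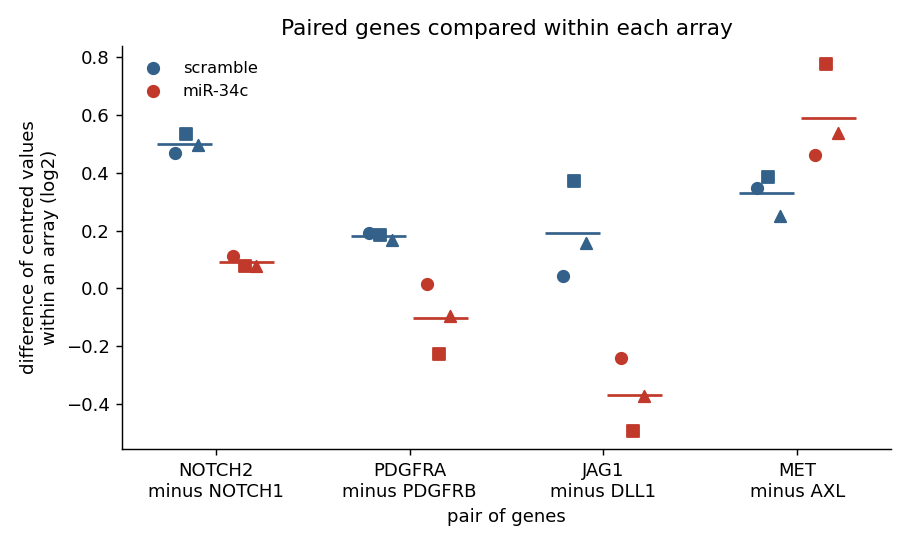
Difference of the centred log2 values of 2 genes on the same array, for the 4 pairs, with blue for scramble, red for miR-34c, marker shapes for the replicate numbers and lines for group means. The miR-34c points lie below the scramble points in the first 3 pairs and above them for MET minus AXL.

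The other genes of these pathways were examined in 8 lists, which were also chosen with earlier results known. Of their 73 measured genes 11 fell (15.1%) and 6 rose (8.22%) in limma, against 7.92% and 7.56% of all probe sets, so the share that rose was near that of all probe sets. The list shares count genes, each called if any of its probe sets passes, while the shares beside them count single probe sets. Leaving out miR-34c replicate 2 left 7 falls, miR-34c replicate 3 left 6 and scramble replicate 1 left 7, and the rises numbered 3 without either of those miR-34c arrays. With each array centred on its median 13 fell and 11 rose, and with quantile normalization again 13 fell and 10 rose, so the share of falls among the calls was 64.7% in the deposited values and 54.2% and 56.5% in these. Over all probe sets that share was 51.2% in the deposited values and 44.0% and 43.8% in these, so it dropped there as well.

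**Figure D5:**
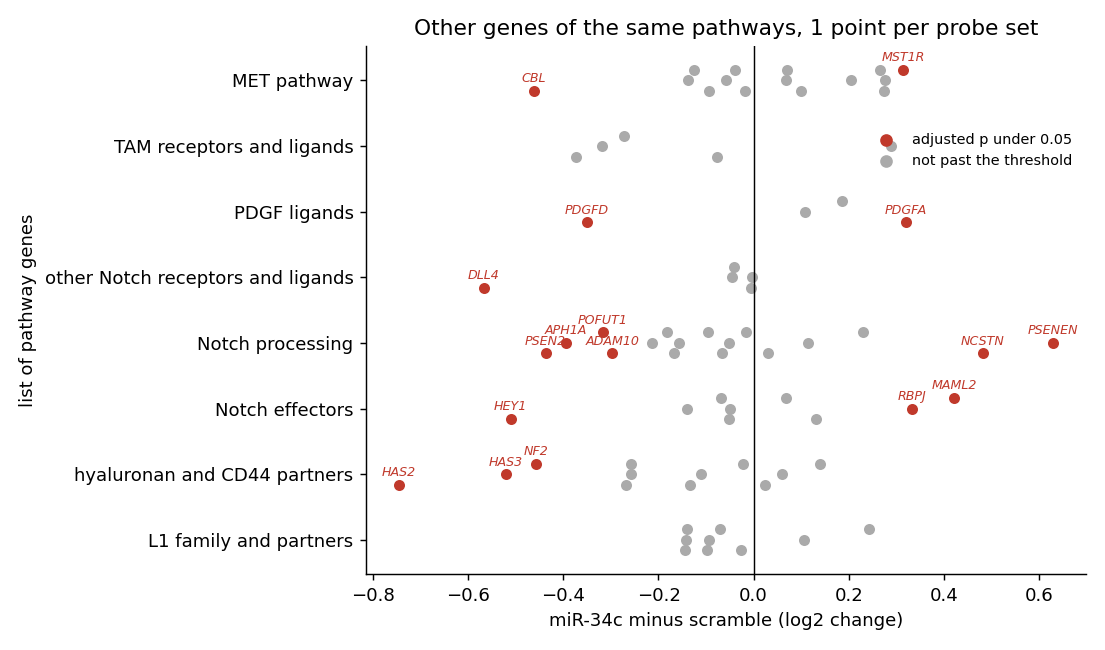
Log2 change (miR-34c minus scramble) of every probe set of the 8 lists, 1 point each, with the probe sets past an adjusted p of 0.05 in red and named. Points are offset vertically within a list only for legibility. Red points lie on both sides of 0 in 4 of the 8 lists, and the L1 and TAM lists have none.

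Around MET 1 of 14 measured genes fell and 1 rose (median log2 change 0.07). CBL, the ubiquitin ligase that marks activated receptors for degradation, fell by 0.46 ± 0.10 (SE) on the log2 scale (limma adjusted p = 0.015). MST1R, the closest relative of MET, rose by 0.31 ± 0.08 (adjusted p = 0.0238). Neither call held in every fit that left out 1 array. The call of CBL was lost without replicate 2 (limma adjusted p = 0.0578) or 3 (0.0582) of the miR-34c group or scramble replicate 1 (0.0567). That of MST1R was lost when any array but scramble replicate 2 was left out (limma adjusted p = 0.0602 to 0.0884). Over all 14 alternatives the log2 change ran from -0.57 to -0.40 for CBL and from 0.27 to 0.36 for MST1R. With array medians set to 0, 4 genes of the list rose, after quantile normalization 3 and with array weights 2. HGF, the ligand of MET, did not pass (log2 change -0.13, adjusted p = 0.487).

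Around AXL none of the other 4 TAM receptors and ligands passed, while 3 of the 4 had an unadjusted p under 0.05 in limma, in either direction, which 16.1% of all probe sets had downward and 12.9% upward. The ligand PROS1 had log2 changes of -0.32 and -0.37 on its 2 probe sets (adjusted p = 0.0518 and 0.0532), and the first of them passed with arrays centred on their medians (0.0418), after quantile normalization (0.0409), with array weights (0.0336), with a replicate block (0.046) or without scramble replicate 3 (0.0441). The other probe set passed with a variance trend (0.0454), with array weights (0.0291) or without miR-34c replicate 1 (0.00979). The ligand GAS6 and the receptor MERTK had log2 changes of 0.29 and -0.27 (adjusted p = 0.0815 and 0.0991), and GAS6 passed as higher with arrays centred on their medians (0.0477), after quantile normalization (0.0342) and with array weights (0.0348). TYRO3 had one of -0.08.

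Of the 4 ligands of the PDGF receptors PDGFA rose and PDGFD fell, with log2 changes of 0.32 ± 0.08 and -0.35 ± 0.09 (SE, limma adjusted p = 0.0295 and 0.0305). Both calls were lost without any 1 of the miR-34c replicates or scramble replicate 1, with adjusted p-values of 0.0649 to 0.122 for PDGFA and 0.0504 to 0.0924 for PDGFD, and 2 of the 4 rose without scramble replicate 2. The call of PDGFD was also lost when all probe sets of the table were fitted (0.0531). PDGFB and PDGFC did not pass, at log2 changes of 0.19 and 0.11.

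Among the other Notch receptors and ligands DLL4 fell and 4 of 5 did not pass. DLL4, a ligand of the Delta class, stood at 0.07, 0.20 and 0.22 with miR-34c and at 0.84, 0.69 and 0.66 with the scramble mimic, and its log2 change was -0.57 ± 0.08 (SE, limma adjusted p = 0.00254). The groups of DLL4 did not overlap, and its call held without any 1 array. NOTCH3, NOTCH4, JAG2 and DLL3 had log2 changes between -0.05 and -0.00398.

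Of 17 genes that process or modify Notch proteins 4 fell and 2 rose (median log2 change -0.10), and subunits of gamma-secretase went both ways. PSENEN and NCSTN rose, by 0.63 ± 0.08 and 0.48 ± 0.08 (SE) on the log2 scale (limma adjusted p = 0.000958 and 0.00552). PSEN2, a catalytic subunit, and APH1A fell, with log2 changes of -0.44 ± 0.08 and -0.39 ± 0.08 (adjusted p = 0.00538 and 0.0122), the call of APH1A being lost without miR-34c replicate 3 (0.0563). ADAM10, a protease that cuts Notch receptors, and POFUT1, which adds fucose to Notch, had the other calls, with log2 changes of -0.30 and -0.32. Each was lost with a replicate block (adjusted p = 0.0543 and 0.0518) and without each of 5 arrays, scramble replicate 2 excepted for ADAM10 (0.0598 to 0.105) and scramble replicate 3 for POFUT1 (0.0571 to 0.116). The list had 2 falls when replicate 1 or 2 of the miR-34c group or scramble replicate 1 was left out, and 1 without miR-34c replicate 3.

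Of 8 measured Notch effectors 1 fell and 2 rose. HEY1, a repressor that is a direct target of Notch signalling, fell by 0.51 ± 0.08 (SE) on the log2 scale (limma adjusted p = 0.00237). The coactivator MAML2 rose by 0.42 ± 0.07 (adjusted p = 0.00508). RBPJ, the DNA-binding partner of cleaved Notch, rose by 0.33 ± 0.07 on 1 probe set (adjusted p = 0.0126) and had a log2 change of -0.05 on its other, and the call was lost without miR-34c replicate 2 (0.0546) or 3 (0.0549). HES1, another Notch target, did not pass (log2 change -0.05).

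Around CD44 3 of 12 measured genes fell and none rose (median log2 change -0.20). HAS2 and HAS3, synthases of hyaluronan, fell, with log2 changes of -0.75 ± 0.15 and -0.52 ± 0.10 (SE) that leave 59.6% and 69.7% of the scramble mean (limma adjusted p = 0.00977 and 0.00681). HAS2 stood at -0.20, -0.28 and -0.60 with miR-34c and at 0.20, 0.70 and 0.27 with the scramble mimic, so both groups were wide but apart. NF2, which encodes merlin, a protein that binds the tail of CD44, fell by 0.46 ± 0.08 (adjusted p = 0.00512). MSN did not pass, at a log2 change of -0.27 (limma adjusted p = 0.0501). The list had 4 falls with a variance trend, centred arrays, quantile normalization, array weights or 1 probe set per gene. Of the 9 measured members and partners of the L1 family none passed in limma. Among them ANK3, an ankyrin, had an unadjusted p under 0.05 (log2 change 0.24, adjusted p = 0.108), and 1 gene of the list rose after centring and after quantile normalization of the arrays.

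Profiles most like those of MET, AXL and NOTCH2 were sought over the 6 arrays as the smallest root mean square difference, in log2 units, between values taken relative to each probe set's own scramble mean. Nearest to MET were RCN1, GORASP2 and MTA2 (0.0229, 0.0246 and 0.0285), with log2 changes of -0.50, -0.49 and -0.52. Nearest to AXL were STX1A, FOXN3 and CDK14 (0.0609, 0.0799 and 0.0815), with log2 changes of -0.80, -0.83 and -0.74. Nearest to NOTCH2 were ZNF283, DCTN5 and ZBED4 (0.0259, 0.0317 and 0.0336), with log2 changes of -0.59, -0.60 and -0.59. Within the 10 genes the nearest pair was MET and JAG1 (0.0562) and the farthest AXL and L1CAM (0.67). These distances are a description of 6 arrays.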

How the data were processed

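From each Trizol extract 100 ng of RNA was labelled with a whole-transcript kit, per the labels' protocols. The authors processed the arrays by RMA in Affymetrix Expression Console (versions not given in the sources used here), per the submitters' processing notes, and deposited log2 values. All 6 arrays share a sign in 29.8% of probe sets, which the median of these 6 arrays as reference would not give. The origin of the reference is not known from the sources used here. Base 2 is assumed, as RMA writes it. A reference common to all arrays cancels between groups. No scan date or batch is labelled.

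Of 28868 probe sets 19309 have 1 gene symbol, 1752 several and 7807 none, in GEO's platform annotation. By Entrez ID 19278 of these symbols were found in RefSeq's gene table (GRCh38.p14), and none changed. No 2 arrays held identical values. limma 3.58.1 in R 4.3.3 was fitted to all 19309 with 1 term, the group, and eBayes without a trend, since centred values carry no brightness. P-values were adjusted by Benjamini-Hochberg with a threshold of 0.05. The fit was run on simulated data with independent normal noise, which checks the code but not how well the fit suits these arrays. A gene of a list with several probe sets counts as called if any of them is.

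Same-numbered arrays of the 2 groups had deviations from their group means that correlated at -0.000464, 0.118 and -0.088, so the numbers were not taken to pair them. The members and lists were chosen with earlier results of these data known. Named are all members, up to 4 called genes per list with the smallest adjusted p, the family's loci and the 3 nearest profiles of MET, AXL and NOTCH2. ADAM10, POFUT1, the markers and the list genes that did not pass were named after their values were seen. Alternatives were the replicate block, a trend, a robust prior, centring, quantile normalization, array weights, 1 probe set per gene, all probe sets, and leaving out each array.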

Additional observations from a re-analysis of the deposited data

How the results depend on the processing

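The 5 falls among the 10 genes (AXL, NOTCH2, JAG1, MET and PDGFRA) kept their direction and passed in limma under all 14 alternatives, and no member rose in any. Their adjusted p-values reached at most 0.0277, that of PDGFRA. The 5 other members did not pass under any of the 14, and 4 of them kept their sign. The replicate block, trend, robust prior, 1 probe set per gene and all probe sets leave a member's log2 change as it was. Its direction could thus turn only under the other alternatives. DLL1 had a log2 change of -0.0257 without miR-34c replicate 2, against 0.04, and of -0.0257 to 0.126 when any 1 array was left out, and the cause was not tested. With the replicate number as a block 5 members fell, 1365 probe sets were called lower and 1334 higher, the pathway lists lost the calls of ADAM10 and POFUT1 and gained PROS1, and the markers CDH1 and KRT8 lost theirs (adjusted p = 0.0614 and 0.0746). Over all probe sets, leaving out 1 array gave 783 to 1429 calls lower and 832 to 1610 higher, against 1529 and 1459. The balance turned to rises with arrays centred (1480 lower, 1885 higher) and after quantile normalization (1514 and 1945). In the pathway lists leaving out 1 array gave 6 to 11 falls and 3 to 7 rises. The rises there were 11 with arrays centred and 10 with quantile normalization again, against 6. With all probe sets of the table fitted, PDGFD, POFUT1, CDH1 and KRT8 no longer passed (adjusted p = 0.0531, 0.0535, 0.0591 and 0.066). Centring and quantile normalization shifted the median log2 change of all probe sets by 0.03. NOTCH2 minus NOTCH1 differed between the groups by -0.38 after quantile normalization, against -0.41. Without 1 array the differences ran from -0.43 to -0.39 for NOTCH2 minus NOTCH1, -0.34 to -0.22 for PDGFRA minus PDGFRB, -0.63 to -0.47 for JAG1 minus DLL1 and 0.17 to 0.33 for MET minus AXL. Brightness is unknown, so signal over background limits these values to an unknown degree.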
